A study of Macaca mulatta with 6 samples.

Results

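The miR-125, miR-99/100 and miR-10 families were followed in small RNA libraries of whole testis from 6 juvenile wild-type rhesus monkeys. Members were taken by name, as the rows miR-125a, miR-125b, miR-99a, miR-99b, miR-100, miR-10a and miR-10b with any arm or copy suffix. This gave 15 of the 701 mature miRNA rows and, as a second count of the same libraries, the 8 precursor genes of the same names among 3083 annotated small RNA genes. Of the 15 arms, 14 passed the filter on low counts, and miR-10a-3p did not. All 8 precursor genes passed.

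The 3 vehicle animals (7, 9 and 11, aged 24, 14 and 15 months) received a pulsatile vehicle infusion for 48 h. The 3 gonadotropin animals (8, 10 and 12, aged 22, 14 and 15 months) were infused in pulses with both gonadotropins, FSH and LH, over the same 48 h. RNA came from snap-frozen pieces of the right testis, so each library mixes all cell types of the juvenile testis, among them Sertoli cells, spermatogonia, peritubular cells and vessels. In such bulk RNA, fewer cells of a type and less RNA per cell cannot be told apart.

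A miRNA precursor is a hairpin from which a 5p and a 3p arm are cut, and usually 1 arm is kept in the silencing complex while the other is degraded. The miR-125 family is the vertebrate counterpart of lin-4, the worm miRNA that times larval development, and LIN28 is among its known targets. The miR-99/100 family is known to restrain MTOR and the IGF1 receptor. miR-10a and miR-10b are encoded inside the HOXB and HOXD clusters and are known to act on HOX messages. miR-10 and miR-99/100 have related sequences and are counted as branches of 1 ancient family. In mammals the miR-99/100 and miR-125 genes sit in clusters that each also hold a let-7 gene, whose maturation, but not that of its neighbours, LIN28 blocks.

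In the rheMac2 coordinates of the authors' table, mir-99a (chromosome 3, 30363532 to 30363612), let-7c (30362796 to 30362879) and mir-125b-2 (30313858 to 30313946) formed the first cluster. let-7c lay 0.653 kb and mir-125b-2 49.6 kb from mir-99a. The second cluster, on chromosome 14, held mir-100 (120559995 to 120560074), let-7a-2 (120554305 to 120554376) and mir-125b-1 (120507558 to 120507645). mir-125b-1 lay 52.4 kb from mir-100. The third, on chromosome 19, was the tightest: mir-99b (57750860 to 57750929), let-7e (57751035 to 57751113) and mir-125a (57751504 to 57751589), with mir-125a only 0.575 kb from mir-99b. mir-10a lay on chromosome 16 (32809599 to 32809707) and mir-10b on chromosome 12 (39792044 to 39792153). miR-125b-5p is cut from both mir-125b-1 and mir-125b-2 and has 1 row, whereas their 3p arms have a row each.

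Library totals ran from 1100190 to 1747355 mature miRNA counts and from 2146412 to 3170784 small RNA gene counts. Vehicle 7 stood apart on the first principal component of the miRNA table (47.5% of the variance), at -14.77 with the others between -2.54 and 6.90. For the small RNA genes vehicle 7 and 9 were the ends of component 1 (36.8% of the variance), at -20.73 and 15.56. The others lay from -4.93 to 5.10 there. On component 2 (30.7% of the variance) the library farthest out was gonadotropin 10, at 22.17, where all others lay from -8.18 to -1.71. The testis-rich X-linked miRNAs of the miR-506 to miR-514 family, used to check the tissue label, summed to 45823 to 65960 counts per 1000000 (CPM) in every library. Their 12 rows were all tested. Markers of meiotic and later germ cells summed to 14.3 to 107 CPM. Among markers of other cells, the blood list (5 of 6 names with a row, 6 of 7 rows tested, none at 0 throughout) was lowest in vehicle 7, at 4921 CPM, with 6358 and 10747 CPM in vehicle 9 and 11 and 7566 to 8879 CPM in the gonadotropin libraries. The epithelial list (6 of 7 names, 6 of 9 rows tested) was highest there, at 240 CPM, with 104 and 137 CPM in vehicle 9 and 11 and 95.5 to 174 CPM in the gonadotropin libraries. The neural list (2 of 3 names, 3 of 3 rows tested) was also highest there, at 163 CPM, with 70.8 and 126 CPM in vehicle 9 and 11 and 94.9 to 106 CPM in the gonadotropin libraries. So was the list of pluripotent germ cells (8 of 8 names, 6 of 11 rows tested), at 738 CPM, with 377 and 657 CPM in vehicle 9 and 11 and 459 to 545 CPM in the gonadotropin libraries. The muscle list (5 of 8 names, 5 of 9 rows tested) was highest in vehicle 9, the library with the highest miR-125 share, at 50445 CPM. Its lowest sum, 21488 CPM, was in gonadotropin 12, where the miR-125 share, 13.1%, was under that of vehicle 9 alone. Vehicle 7, lowest in miR-125 share, held 23510 CPM of this list, and vehicle 11 held 33039 CPM. Gonadotropin 8 held 40691 CPM of it and gonadotropin 10 held 34654 CPM. The endothelial list, of miR-126 alone, was at 5632, 9164 and 5534 CPM in vehicle 7, 9 and 11. It was at 11264, 7377 and 6871 CPM in gonadotropin 8, 10 and 12, so gonadotropin 8 was highest. Each sum weighs its most abundant row most, such as miR-145-5p for muscle (mean 22854 CPM) and miR-451 for blood (mean 6101 CPM). The part of these cell types in the values of vehicle 7 and 9, or of any other library, was not tested.

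Together the 15 arms made up 11% of all mature miRNA counts in vehicle 7, 23.9% in vehicle 9 and 18.4% in vehicle 11, and 17.5%, 17.6% and 18.5% in gonadotropin 8, 10 and 12. The groups overlapped, and vehicle 7 and 9 held the lowest and the highest share. miR-125 varied most, at 4.45%, 17.2% and 11.6% in vehicle 7, 9 and 11 and 12.7%, 9.71% and 13.1% in gonadotropin 8, 10 and 12. As a share, miR-99/100 stayed within a narrow band, at 3.16%, 3.17% and 3.17% in the vehicle libraries and 2.82%, 3.58% and 3.06% in the gonadotropin libraries. With the scaling between libraries used for single arms below, its sum ran from 24969 CPM in gonadotropin 8 to 37659 CPM in vehicle 7. miR-10 took 3.39%, 3.63% and 3.62% of the vehicle libraries and 2.01%, 4.33% and 2.32% of gonadotropin 8, 10 and 12. The 95% Wilson interval of each share was at most ± 0.071 percentage points, which covers counting error only. So the low miR-125 share of vehicle 7 and the low miR-10 shares of gonadotropin 8 and 12 exceeded counting error, although each library is 1 animal.

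**Figure D1:**
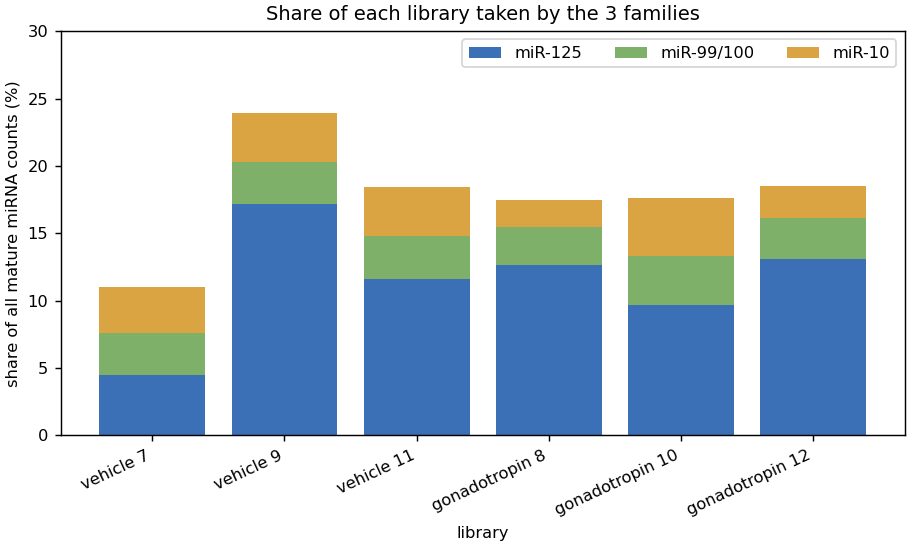
Share of all mature miRNA counts (%, y axis) taken by the miR-125, miR-99/100 and miR-10 arms in each of the 6 libraries (x axis), stacked. The total ran from 11% in vehicle 7 to 23.9% in vehicle 9, and the miR-125 segment accounts for most of that spread.

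Levels of single arms are given as CPM scaled by the trimmed mean of M-values (TMM). Mature arms are of similar length, so these levels were compared without division by length. By mean level miR-125b-5p ranked first of 701 rows, miR-10b-5p sixth, miR-125a-5p eighth and miR-99a-5p at 11. miR-125b-5p ranked first in 5 libraries and at 8 in vehicle 7, where miR-10b-5p (39730 CPM) was counted slightly more often than miR-125b-5p (38444 CPM). The ranges of miR-10b-5p, miR-125a-5p and miR-99a-5p over the 6 libraries overlapped, so their order is not separated by the spread. miR-100-5p (rank 44) and miR-99b-5p (rank 71) followed, and their ranges overlapped neither each other nor that of miR-99a-5p. miR-99a-3p (rank 111) and miR-10a-5p (rank 126) overlapped, as did miR-125b-2-3p (rank 178) and miR-10b-3p (rank 189). The remaining 3p arms were rare: miR-99b-3p, miR-125a-3p and miR-125b-1-3p lay between 18.3 and 61.0 CPM, miR-100-3p between 4.52 and 11.2 CPM. miR-10a-3p had 2, 1 and 2 counts in vehicle 7, 9 and 11 and 0, 0 and 1 in gonadotropin 8, 10 and 12. A count of 0 allows up to 3 counts, so this arm was at the limit of detection in every library.

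**Figure D2:**
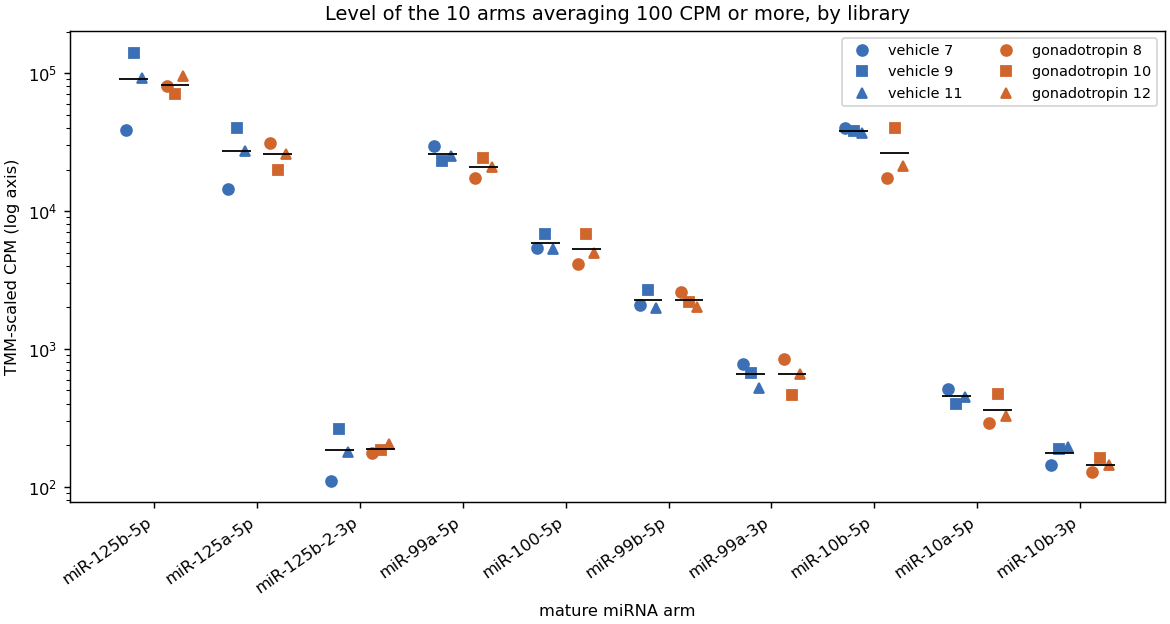
TMM-scaled CPM (log y axis) of the 10 arms averaging 100 CPM or more (x axis). Each point is 1 library, vehicle in blue and gonadotropin in orange, and short black lines are group means. The groups overlap for every arm, with vehicle 7 low for the miR-125 arms and gonadotropin 8 and 12 low for miR-10b-5p.

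Gonadotropin against vehicle asks whether the hormone drive of early puberty moved these families within 48 h. No member passed the edgeR quasi-likelihood test in either table. Among mature miRNAs, 0 of 14 tested arms were called, where 0.231% of all 433 tested miRNAs were. None of the 14 arms had groups that did not overlap, where 11.3% of all tested miRNAs did. The members' lowest edgeR quasi-likelihood adjusted p was 0.802, and 0 members had an unadjusted p under 0.05. DESeq2, limma voom and the edgeR exact test also called 0 members, where they called 3, 0 and 3 of all 433 tested miRNAs. Of the 14 arms, 10 had a lower and 4 a higher value with gonadotropin (5 lower and 9 higher by library totals, 12 lower and 2 higher by the upper quartile). Of all 433 tested miRNAs, 234 had a lower and 199 a higher value in the main fit. The members' median log2 fold change was -0.14, beside -0.06 over all tested miRNAs. Library totals in place of TMM moved the median of all miRNAs by 0.25 and that of the members from -0.14 to 0.10, and the members' median lay under that of all tested miRNAs with both. Without vehicle 9 the members' median was 0.15, with 9 higher and 5 lower. Without gonadotropin 10 it was -0.03, with 7 in each direction. In the authors' deposited table, an edgeR exact test, the lowest adjusted p of the 14 arms was 0.999.

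The approximate 95% intervals of the fold changes, from the quasi-likelihood fit, show what these 6 libraries could bound. Among the 10 arms averaging 100 CPM or more, the interval was narrowest for miR-99a-5p, from -0.94 to 0.31, and widest for miR-125b-5p, from -1.02 to 0.74. For miR-125b-5p, miR-10b-5p (-1.28 to 0.20) and miR-10a-5p (-1.02 to 0.38) it included a fall of 2-fold, which is -1 on the log2 scale. For the other 7 arms, such as miR-99b-5p (-0.65 to 0.66), it included neither a fall nor a rise of 2-fold.

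**Figure D3:**
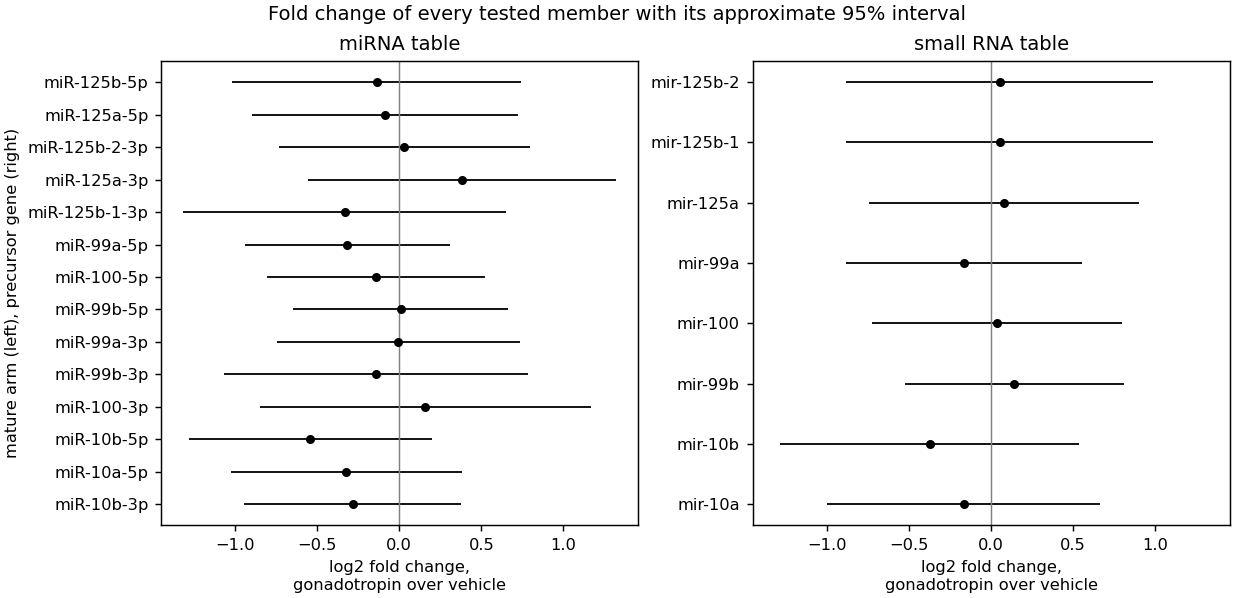
Log2 fold change of gonadotropin over vehicle (x axis) for the 14 tested arms (left) and the 8 precursor genes (right), with approximate 95% intervals from the edgeR quasi-likelihood fit. Every interval includes 0. miR-10b-5p, at -0.54, lies farthest from 0.

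Within the miR-125 family, miR-125b-5p, the arm best known for timing differentiation, was at 38444, 140774 and 92378 CPM in vehicle 7, 9 and 11. It was at 80397, 70894 and 95591 CPM in gonadotropin 8, 10 and 12. The gonadotropin libraries lay inside the range set by the vehicle libraries, whose highest and lowest differed by 3.66 times. Its log2 fold change was -0.14 (SE 0.41, edgeR quasi-likelihood adjusted p = 0.952). The value was -0.49 without vehicle 7, 0.37 without vehicle 9 and 0.08 with library totals, so its sign rests on single libraries and on the scaling.

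miR-125a-5p, its close relative from chromosome 19, was at 14386, 40203 and 27474 CPM in vehicle against 31394, 19862 and 26025 CPM in gonadotropin 8, 10 and 12. Vehicle 7 was again lowest and vehicle 9 highest. The log2 fold change was -0.09 (SE 0.37, edgeR quasi-likelihood adjusted p = 0.959), at -0.38 without vehicle 7, 0.34 without vehicle 9 and 0.14 with library totals. The 3p arm of the second miR-125b copy, miR-125b-2-3p, was at 111, 261 and 178 CPM in vehicle against 175, 185 and 203 CPM in gonadotropin. It repeated the order of the vehicle libraries seen for the 5p arm, and its gonadotropin libraries differed little. Its log2 fold change was 0.03 (SE 0.35), -0.22 without vehicle 7, 0.43 without vehicle 9 and -0.11 when scaled by the upper quartile. The rare arms miR-125a-3p (0.38, SE 0.43) and miR-125b-1-3p (-0.33, SE 0.46) had values on opposite sides of 0. Without vehicle 9 they were at 0.84 and 0.24, and without vehicle 7 at 0.14 and -0.54.

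Within the miR-99/100 family, miR-99a-5p was at 29380, 23231 and 24897 CPM in vehicle 7, 9 and 11 against 17322, 24103 and 20849 CPM in gonadotropin 8, 10 and 12. Gonadotropin 8 was lowest, and gonadotropin 10 lay among the vehicle libraries. The log2 fold change was -0.32 (SE 0.29, edgeR quasi-likelihood adjusted p = 0.828), with -0.21 without vehicle 7 and -0.06 by library totals. miR-100-5p, which differs from miR-99a-5p by a single base, was at 5367, 6843 and 5298 CPM in vehicle against 4138, 6795 and 4943 CPM in gonadotropin. Vehicle 9 and gonadotropin 10 were the highest pair and nearly equal. Its log2 fold change was -0.14 (SE 0.31), 0.10 with library totals, -0.39 without gonadotropin 10 and 0.06 without vehicle 9.

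miR-99b-5p, from the chromosome 19 cluster, was the steadiest member, at 2095, 2697 and 1995 CPM in vehicle against 2609, 2202 and 2011 CPM in gonadotropin. Its highest and lowest libraries differed by 1.35 times. The log2 fold change was 0.01 (SE 0.30), with -0.11 when scaled by the upper quartile, -0.11 without gonadotropin 8 and 0.22 without vehicle 9. The 3p arm of miR-99a was at 781, 665 and 524 CPM in vehicle against 844, 460 and 657 CPM in gonadotropin. The highest and the lowest of these libraries were both gonadotropin libraries, and the log2 fold change was -0.01 (SE 0.34; 0.26 with library totals, -0.11 when scaled by the upper quartile, -0.25 without gonadotropin 8 and 0.16 without gonadotropin 10). miR-99b-3p (-0.14, SE 0.43; 0.09 with library totals, -0.39 without vehicle 7 and 0.28 without vehicle 9) and miR-100-3p (0.16, SE 0.47) were near the low end of what was tested. miR-100-3p was at 0.60 without vehicle 7 and -0.01 without vehicle 9.

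Within the miR-10 family, miR-10b-5p was at 39730, 37742 and 36718 CPM in vehicle 7, 9 and 11, a tight set. In gonadotropin 8, 10 and 12 it was at 17356, 39945 and 21158 CPM. So 2 of the 3 gonadotropin libraries lay well under every vehicle library, while gonadotropin 10 lay above them all. The group means were 38063 ± 1531 CPM in vehicle against 26153 ± 12095 CPM in gonadotropin (SD, n = 3 each). The log2 fold change was -0.54 (SE 0.34, edgeR quasi-likelihood adjusted p = 0.802), the member farthest from 0. Without gonadotropin 10 it was -1.01 (edgeR quasi-likelihood adjusted p = 0.567), and without gonadotropin 8 it was -0.32. With library totals it was -0.30.

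miR-10a-5p, which differs from miR-10b-5p by a single base and acts on the same seed matches, was far rarer. It was at 508, 399 and 449 CPM in vehicle against 288, 471 and 325 CPM in gonadotropin 8, 10 and 12. Gonadotropin 8 and 12 were again the lowest libraries and gonadotropin 10 lay among the vehicle libraries. Its log2 fold change was -0.32 (SE 0.32, edgeR quasi-likelihood adjusted p = 0.881). It was -0.59 without gonadotropin 10, -0.19 without gonadotropin 8 and -0.07 by library totals. The other arm of mir-10b, miR-10b-3p, was at 144, 188 and 194 CPM in vehicle against 127, 161 and 143 CPM in gonadotropin. Its lowest libraries were gonadotropin 8 and 12 too, with vehicle 7 next at nearly the level of gonadotropin 12. The log2 fold change was -0.28 (SE 0.31, edgeR quasi-likelihood adjusted p = 0.883). It was -0.13 without vehicle 11, -0.17 without vehicle 9 and -0.05 by library totals.

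Across libraries the miR-125 arms had other extremes than most arms of the other families. Set against the median of the other 5 libraries on the log2 scale, vehicle 7 was at -1.26 for miR-125b-5p, -0.93 for miR-125a-5p, -0.97 for miR-125a-3p and -0.74 for miR-125b-2-3p. It was at 0.34 for miR-99a-5p, 0.11 for miR-10b-5p and 0.35 for miR-10a-5p. Vehicle 7 was the lowest library for 4 of the 5 miR-125 arms and vehicle 9 the highest for 4 of them. Of the 6 miR-99/100 arms, miR-99b-3p alone was lowest in vehicle 7, at -0.65, although its 5p partner was at -0.07 there. For all 3 tested miR-10 arms gonadotropin 8 was the lowest library, as it was for miR-99a-5p and miR-100-5p. Vehicle 9 was the highest library for 3 of the 6 miR-99/100 arms. miR-10b-5p was at -1.12 in gonadotropin 8 and -0.84 in gonadotropin 12.

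**Figure D4:**
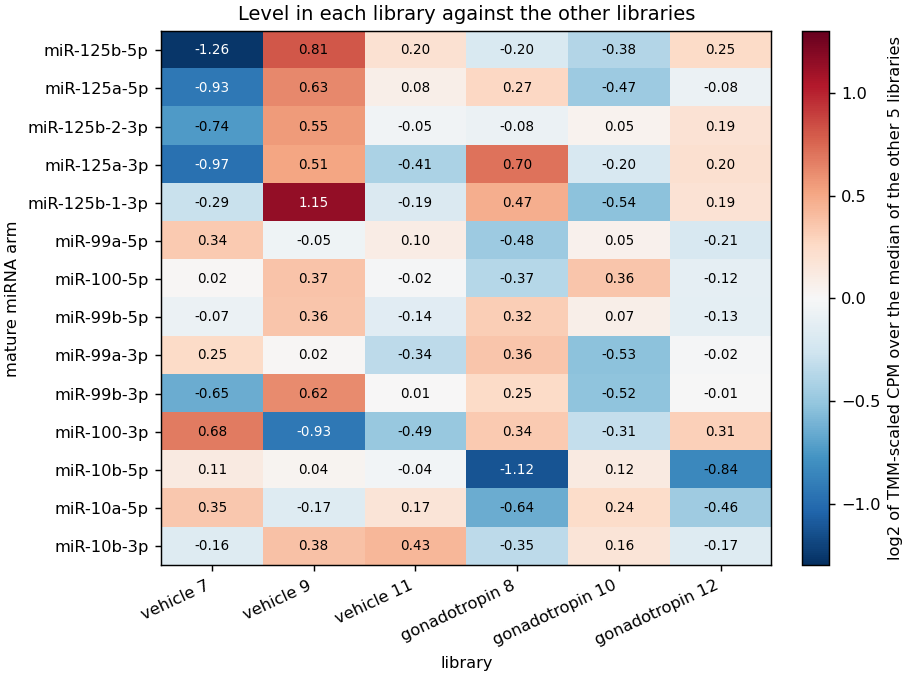
Log2 of the TMM-scaled CPM in each library (columns) over the median of the other 5 libraries, for the 14 tested arms (rows), grouped as miR-125, miR-99/100 and miR-10 from the top. Blue cells are low and red cells high: the miR-125 rows are low in vehicle 7 (down to -1.26) and the miR-10 rows low in gonadotropin 8 (down to -1.12).

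Likeness was measured as the mean absolute difference, over the 6 libraries, between log2 CPM values centred on each miRNA's own mean, so that 0 means the same profile. For miR-125b-5p it was 0.191 to miR-125a-5p and 0.198 to miR-125b-2-3p. To the other families' arms it ran from 0.417 for miR-10b-3p, 0.443 for miR-99b-5p and 0.510 for miR-100-5p to 0.557 for miR-99a-5p, 0.583 for miR-99a-3p, 0.613 for miR-10a-5p and 0.696 for miR-10b-5p. The median over the 216 miRNAs outside the families that averaged 100 CPM or more was 0.554, between these. The 3 of those 216 most like miR-125b-5p were miR-425 (0.176), miR-106b-3p (0.207) and miR-339-3p (0.246). For miR-99a-5p the member nearest in profile was miR-10a-5p (0.0761), nearer than miR-100-5p (0.184). Outside the families miR-107-3p (0.0775), miR-30b-5p (0.0832) and miR-450a-5p (0.110) came closest, beside a median of 0.360. For miR-10b-5p they were let-7d (0.133), miR-23a-3p (0.181) and miR-513a (0.203), beside a median of 0.526, and miR-10a-5p was at 0.194. These are descriptions of 6 libraries that share the scaling and, for vehicle 7 and gonadotropin 8, single extreme values.

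Ratios within a library need no scaling between libraries, and 17 fixed ratios of arms were compared between the groups by an exact permutation test. With 3 libraries against 3 its smallest possible p is 0.1, so none could pass 0.05, and the groups overlapped in 16 of the 17. miR-99a-5p was counted 2.98, 2.82 and 3.63 times as often as let-7c-5p in vehicle 7, 9 and 11 and 3.63, 3.34 and 2.99 times in gonadotropin 8, 10 and 12. That is a spread of 1.29 times between the extremes, the narrowest of all 17. Its group difference was 0.08 on the log2 scale (exact permutation p = 0.5, two-sided, adjusted p = 0.96 over 12 ratios between members and partners).

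The ratio of miR-99a-5p to the farther partner of the same cluster, miR-125b-2-3p, was looked up after the values were seen and has no test. It was 264 in vehicle 7, 88.7 and 139 in vehicle 9 and 11, and 99.0, 130 and 102 in gonadotropin 8, 10 and 12. So in vehicle 7 this ratio lay above all other libraries, while that of miR-99a-5p to let-7c-5p lay among them. How reads shared by let-7c and let-7a were counted is not given. The fixed ratio of 3p arms, miR-125b-2-3p to miR-99a-3p, was 0.142, 0.393 and 0.341 in vehicle 7, 9 and 11. It was 0.207, 0.401 and 0.310 in gonadotropin 8, 10 and 12, so gonadotropin 8 was low there too (exact permutation p = 0.8, adjusted p = 0.96). On chromosome 19 the ratio of miR-99b-5p to miR-125a-5p was 0.146 in vehicle 7, 0.0671 and 0.0726 in vehicle 9 and 11, and 0.0831, 0.111 and 0.0773 in gonadotropin 8, 10 and 12. Vehicle 7 was again the extreme, and these genes lie 0.575 kb apart. The part of gene distance in these ratios was not tested.

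The ratios to let-7e-5p of the same cluster had another extreme library. miR-99b-5p to let-7e-5p was 0.402, 0.437 and 0.398 in vehicle 7, 9 and 11, 0.847 in gonadotropin 8, and 0.372 and 0.384 in gonadotropin 10 and 12. Without gonadotropin 8 its group difference turned from 0.26 to -0.12 on the log2 scale. miR-125a-5p to let-7e-5p was 10.2 in gonadotropin 8 and 2.76 in vehicle 7, with 3.35 to 6.51 in the other libraries. let-7e-5p itself was at 3078 CPM in gonadotropin 8 and 5012 to 6171 CPM elsewhere.

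**Figure D5:**
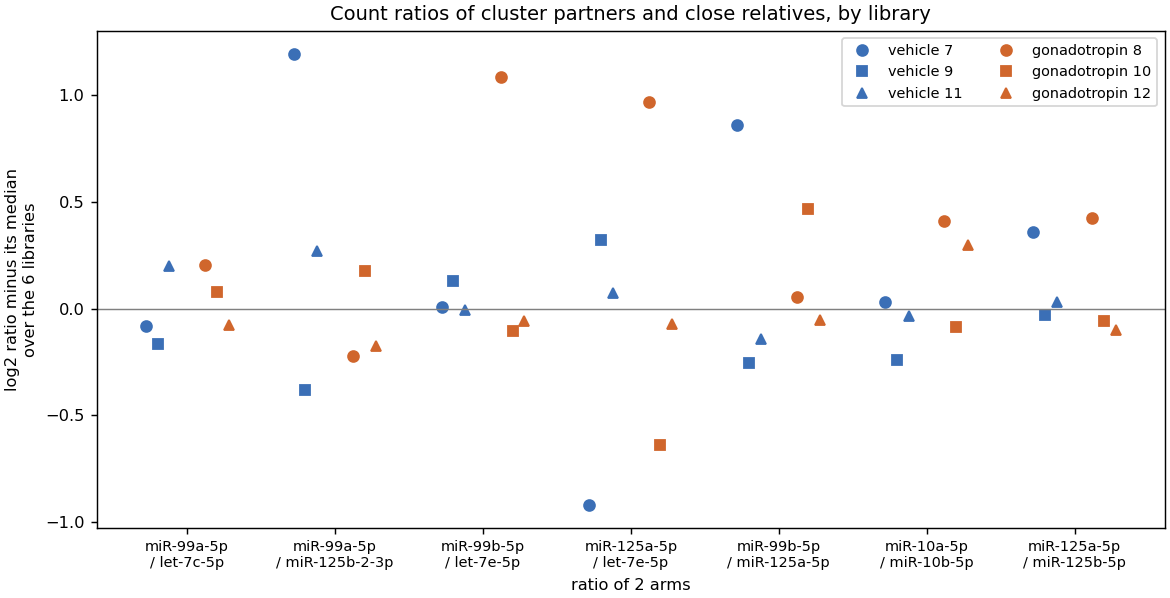
Log2 ratio of the counts of 2 arms, less its median over the 6 libraries (y axis), for 7 ratios (x axis). Each point is 1 library, vehicle in blue and gonadotropin in orange. The ratio of miR-99a-5p to let-7c-5p is the tightest, vehicle 7 is the extreme for miR-99a-5p over miR-125b-2-3p and miR-99b-5p over miR-125a-5p, and gonadotropin 8 is highest for both ratios to let-7e-5p.

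Between near-identical relatives, the ratio of miR-10a-5p to miR-10b-5p was 0.0128, 0.0106 and 0.0122 in vehicle 7, 9 and 11 and 0.0166, 0.0118 and 0.0154 in gonadotropin 8, 10 and 12. The 2 libraries with the least miR-10b-5p had the highest ratios, but miR-10b-5p is the denominator, so the 2 observations are not independent. The group difference was 0.29 on the log2 scale (exact permutation p = 0.3, two-sided, adjusted p = 0.96). The ratio of miR-99a-5p to miR-100-5p ran from 3.39 in vehicle 9 to 5.47 in vehicle 7, with 3.55 to 4.22 in the gonadotropin libraries (exact permutation p = 0.5, adjusted p = 0.96). The ratio of miR-125a-5p to miR-125b-5p was 0.374, 0.286 and 0.297 in vehicle against 0.390, 0.280 and 0.272 in gonadotropin 8, 10 and 12. It was highest in vehicle 7 and gonadotropin 8, the libraries of the oldest animals (24 and 22 months), and with 2 such animals this was not tested. The 3p arms of the 2 miR-125b copies, miR-125b-1-3p to miR-125b-2-3p, stood at 0.204, 0.203 and 0.135 in vehicle against 0.191, 0.103 and 0.135 in gonadotropin 8, 10 and 12 (exact permutation p = 0.2, adjusted p = 0.96). So the copy on chromosome 3 gave more 3p counts than the copy on chromosome 14 in every library. The share of miR-125b-5p that came from each copy cannot be read from these counts.

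In every precursor that could be compared the 5p arm was the main product. The ratio of 5p to 3p counts ran from 615 to 1007 for miR-125a, 447 to 1398 for miR-100, 136 to 275 for miR-10b, 43.9 to 80.9 for miR-99b and 20.5 to 52.3 for miR-99a. Only for miR-125a did the groups not overlap, at 768, 897 and 1007 in vehicle 7, 9 and 11 and 615, 633 and 719 in gonadotropin 8, 10 and 12. The difference was -0.44 on the log2 scale (exact permutation p = 0.1, two-sided, the smallest possible, adjusted p = 0.5 over 5 ratios). It rests on 23 to 63 counts of miR-125a-3p per library. For miR-99a the ratio was 37.6, 34.9 and 47.5 in vehicle against 20.5, 52.3 and 31.7 in gonadotropin 8, 10 and 12, so the gonadotropin libraries held both extremes (exact permutation p = 0.6, adjusted p = 0.7). For miR-10b it was 275, 201 and 188 in vehicle. In gonadotropin 8, 10 and 12 it was 136, 247 and 147 (exact permutation p = 0.3, adjusted p = 0.7). It was lowest in the 2 libraries where miR-10b-5p, its numerator, was low, so the 2 observations are not independent.

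The miRNAs encoded beside the members were counted as a fixed list of let-7c, let-7a and let-7e from the 3 clusters and miR-196a, miR-196b and miR-615, the other miRNAs of the HOX clusters. Of 13 such rows 8 were tested, 6 with lower and 2 with higher values, beside 234 lower and 199 higher of all 433 tested miRNAs. Of the 8, 0 passed the edgeR quasi-likelihood test, where 0.231% of all tested miRNAs did. The median log2 fold change of the 8 was -0.20, beside -0.06 over all tested miRNAs. miR-196b-5p, encoded near HOXA genes, had the smallest p. It was at 12.7, 26.4 and 34.6 CPM in vehicle 7, 9 and 11 against 10.5, 12.3 and 15.3 CPM in gonadotropin 8, 10 and 12. Its log2 fold change was -0.95 (SE 0.45, edgeR quasi-likelihood adjusted p = 0.702). let-7a-5p (-0.66, SE 0.33) and let-7c-5p (-0.40, SE 0.30) came next. let-7a-5p is cut from copies outside the clusters as well, and was the only tested arm of the list whose groups did not overlap (1 of 8, beside 11.3% of all tested miRNAs). Its lowest vehicle library (vehicle 9, 42507 CPM) and highest gonadotropin library (gonadotropin 10, 42480 CPM) were nearly equal.

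The precursor genes of the small RNA table gave a second count of the same reads. Their counts lay within 0.983 to 1.05 times the summed arms of the miRNA table for every member except mir-10a, at 0.869 to 0.961 times. mir-125b-1 and mir-125b-2 each held 1.00 to 1.02 times the counts of miR-125b-5p plus their own 3p arm. The 2 genes differed by 0.195 to 0.318% in any library, so both carry the shared 5p reads and are 1 measurement, not 2. let-7c behaved otherwise, at 5.78 to 8.22 times its arms, and mir-99a, its neighbour, was at 0.992 to 1.00 times. The let-7c gene held 102018 counts in vehicle 7, nearly as many as the let-7a genes there (103068 to 103887). The part of reads shared with let-7a in this was not tested.

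None of the 8 genes passed the edgeR quasi-likelihood test, where 0.139% of 717 tested genes did, and none had groups that did not overlap, where 8.23% did. The lowest adjusted p of the members was 0.998, and 0 had an unadjusted p under 0.05. DESeq2, limma voom and the edgeR exact test called 0 members as well, where they called 3, 0 and 3 of all 717 tested genes. Of all 717 tested genes, 345 had a higher and 372 a lower value. Of the 8 member genes, 5 had a higher and 3 a lower value, with a median log2 fold change of 0.05 beside -0.02 over all tested genes. The 5 higher genes and the median count mir-125b-1 and mir-125b-2 apart, although they are 1 measurement. Leaving out vehicle 7 gave a median of -0.07, leaving out gonadotropin 10 gave -0.06, and leaving out gonadotropin 12 gave -0.09.

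mir-10b (ENSMMUG00000026948, chromosome 12, 63173247 to 63173356, rheMac8) was at 21773, 17119 and 19138 CPM in vehicle 7, 9 and 11 against 8690, 23836 and 12295 CPM in gonadotropin 8, 10 and 12. The pattern of the mature arm recurred, with gonadotropin 8 and 12 under and gonadotropin 10 above the vehicle libraries. Its log2 fold change was -0.37 (SE 0.40), with -0.89 without gonadotropin 10 and -0.08 without gonadotropin 8. mir-125b-1 (ENSMMUG00000026946, chromosome 14, 114954035 to 114954122, rheMac8) was at 21452, 64069 and 48254 CPM in vehicle against 40398, 42632 and 55887 CPM in gonadotropin. Vehicle 7 and 9 again set the range, and the log2 fold change was 0.05 (SE 0.41), -0.26 without vehicle 7 and 0.36 without vehicle 9. mir-125a stood at 0.08 (SE 0.36; -0.17 without vehicle 7 and 0.31 without vehicle 9). mir-99a was at -0.16 (SE 0.31; 0.02 without vehicle 7 and -0.38 without vehicle 9), mir-100 at 0.04 (SE 0.33; -0.24 without gonadotropin 10 and 0.26 without gonadotropin 8), mir-99b at 0.14 (SE 0.29) and mir-10a at -0.16 (SE 0.36; 0.03 without vehicle 7 and -0.43 without gonadotropin 10).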

How the data were processed

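The authors deposited raw counts per mature miRNA (miRDeep2, rheMac2) and raw counts per small RNA gene (HTSeq, rheMac8), per the labels. Tools named in the submitters' processing notes are HTSeq 0.6.1p1, Bowtie 1.1.2, cutadapt 1.9.1 and edgeR. For reads matching several miRNAs, the counting rule is not given in the sources used here. Per the labels, the submitters name Ion Torrent in the titles and Illumina steps in the protocol. The authors' edgeR tables add log2 fold changes, p-values and CPM; the deposited CPM were not used.

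Counts were filtered with filterByExpr (minimum count 10), scaled by TMM and tested on all 433 miRNAs or 717 genes in edgeR 4.0.16 under R 4.3.3 (glmQLFit with robust estimation, glmQLFTest, Benjamini-Hochberg threshold 0.05). limma 3.58.1 and DESeq2 1.42.0 served as alternatives. Each SE was derived from the F statistic (absolute log2 fold change over root F), and intervals use it with the fit's degrees of freedom. Ratios used counts plus 0.5 and exact permutation tests (scipy 1.17.1). Arm ratios needed 10 or more counts of both arms in at least 3 libraries. The scripts were tested on simulated data. Members averaging 100 CPM or more were given per library, partners by smallest p, and similar profiles by the distance defined in the text. Members, lists and rules were chosen with earlier results of these data known. Libraries are 1 per animal, and no molecular identifiers are described. miR-202 and miR-122, set down as markers, had no row of those names among the mature miRNAs.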

Additional observations from a re-analysis of the deposited data

How the results depend on the processing

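Over the 16 alternatives tried for each fit, 0 members were called in either table (lowest adjusted p 0.405 for arms and 0.641 for precursor genes). Few features were called at all. Calls among all tested miRNAs ran from 0 (such as limma voom, of 433) to 4 (without vehicle 9, of 447). Among all tested genes they ran from 0 (such as limma voom, of 717) to 3 (such as DESeq2, of 717). Of 22 member fold changes (log2), 7 kept their direction under all 16: miR-10a-5p, miR-10b-3p, miR-10b-5p, miR-125a-3p, miR-99a-5p, mir-10b and mir-99b. The other 15, with mir-125b-1 and mir-125b-2 counted apart, turned at least once, and the cause was not tested. With library totals, miR-100-5p was at 0.10, miR-125a-5p at 0.14, miR-125b-5p at 0.078, miR-99a-3p at 0.26 and miR-99b-3p at 0.093. With upper-quartile scaling, miR-125b-2-3p was at -0.11 and miR-99b-5p at -0.11. With limma voom, miR-125a-5p was at 0.0081, miR-125b-5p at 0.041 and mir-100 at -0.012. With pairs by age, they were at 0.0060, 0.042 and -0.013. With age as a covariate, miR-99a-3p was at 0.0096 and mir-100 at -0.025. miR-99a-3p was at 0.00037 with no filter and 0.071 with more than 1 CPM in 3 libraries.

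Leaving out 1 library in turn gave, as lowest and highest log2 fold change, -0.013 and 0.60 for miR-100-3p, -0.39 and 0.060 for miR-100-5p, -0.38 and 0.34 for miR-125a-5p, and -0.54 and 0.24 for miR-125b-1-3p. They were -0.22 and 0.43 for miR-125b-2-3p, -0.49 and 0.37 for miR-125b-5p, -0.25 and 0.16 for miR-99a-3p, -0.39 and 0.28 for miR-99b-3p, and -0.11 and 0.22 for miR-99b-5p. For the genes they were -0.43 and 0.035 for mir-10a, -0.26 and 0.36 for mir-125b-1, -0.25 and 0.36 for mir-125b-2, -0.17 and 0.31 for mir-125a, -0.24 and 0.26 for mir-100, and -0.38 and 0.021 for mir-99a.

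The log2 ratio of group mean shares was -0.26 for miR-99/100 with TMM-scaled CPM (-0.0056 as a share), -0.11 to 0.069 without 1 library, and -0.71 to -0.092 for miR-10 (-0.30 with all). For miR-125 it was 0.094 as a share and -0.13 with TMM-scaled CPM, and ran from -0.28 without vehicle 7 to 0.56 without vehicle 9. Without 1 library the 5p to 3p difference ran from -0.64 to 0.040 for miR-99a, -0.10 to 0.36 for miR-99b and -0.79 to 0.00079 for miR-100. Differences of ratios ran from -0.20 to 0.089 for miR-125a-5p to miR-125b-5p, -0.092 to 0.39 for miR-99b-5p to miR-100-5p, -0.20 to 0.36 for miR-99b-5p to miR-125a-5p, -0.12 to 0.47 for miR-99b-5p to let-7e-5p, and -0.18 to 0.62 for miR-125a-5p to let-7e-5p. For the 3p arms they ran from -0.47 to 0.029 for miR-99a-3p to miR-100-3p, -0.31 to 0.42 for miR-125b-2-3p to miR-99a-3p, and -1.04 to 0.19 for miR-125b-1-3p to miR-100-3p. A pseudocount of 1 turned none of the 17 ratios.

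No paired analysis was possible because the animals' numbers differ between the groups; pairs by age are an age match only. Depth limits the rare 3p arms, with 6 to 14 counts per library for miR-100-3p and 0 to 2 for miR-10a-3p.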
